A study of Mus musculus with 8 samples.

Results

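LTR retrotransposon copies were followed in the poly(A) tail data of P19 cells, a mouse embryonal carcinoma line kept undifferentiated and wild type, treated for 24 h or 48 h with 10 µM MHY1485 (MHY), a compound that activates mTOR, or with its solvent DMSO alone. The members were the reference sequences, here called contigs, that the deposited table puts in repeat class LTR, with 1 count per read and contig and the Nanopolish quality tag PASS. In all, 2016 LTR copies had such reads, of 34791 contigs, and they held 7695 of 2027632 PASS alignments. They belonged to 278 elements (repeat names) and 5 families. Each of the 4 groups (DMSO 24 h, MHY 24 h, DMSO 48 h and MHY 48 h) had 2 libraries, numbered 21 and 23 at 24 h and 24 and 25 at 48 h. Per the study's methods, both libraries of a group were biological replicates. No run held libraries of both times, so that time and run cannot be told apart.

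LTR retrotransposons are remnants of, or relatives of, retroviruses. A full-length element carries an internal segment between a pair of long terminal repeats (LTRs). Transcription starts in the 5′ LTR, and the RNA is cleaved and polyadenylated in the 3′ LTR. In mouse, the ERVK family includes intracisternal A particles (IAP) and early transposons (ETn) with their coding relative MusD, which are active in embryonic cells and are held down by KRAB zinc finger proteins, Trim28 and Setdb1. ERV1 and ERVL are other endogenous retroviruses, and ERVL-MaLR are old non-autonomous elements such as MT and ORR1. The elements ERVB7_1-LTR_MM and RLTRETN_Mm are called ETn LTRs here, from background knowledge of the repeat names and from the contigs beside them. Only 171 of the 490 copies (34.9%, with 62.9% of the reads) had an internal contig (MMETn-int or ETnERV-int) or the LTR-named RLTR13G beside them. No file states that ERVB7_1-LTR_MM is an ETn LTR. Elements whose names begin with IAPLTR are called IAP LTRs.

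The RNA ends were read on the copies themselves. The sequences shown are the 8 copies with at least 5 reads that lie in an exon of a non-coding GENCODE transcript and hold the poly(A) signal AATAAA within 40 nt upstream of the median last aligned nucleotide of their reads. They are shown because they let the letters before the RNA end be read on the copy itself. Each runs 5′ to 3′ on the strand of the signal, from 20 nt before the signal to 20 nt past the median read end or to the end of the sequence available, and capitals mark AATAAA. Coordinates are GRCm38 (mm10), and the sequences come from GENCODE vM21 transcripts.
RLTRETN_Mm_dup1163 (chr16:11191623-11191686, + strand, lincRNA 4930509G22Rik): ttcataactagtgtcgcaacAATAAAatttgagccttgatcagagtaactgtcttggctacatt
RLTRETN_Mm_dup227 (chr3:101085302-101085365, + strand, in sense-intronic Gm43465): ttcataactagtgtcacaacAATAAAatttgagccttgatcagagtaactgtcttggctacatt
ERVB7_1-LTR_MM_dup701 (chr17:32376361-32376424, + strand, in a retained-intron transcript of Wiz): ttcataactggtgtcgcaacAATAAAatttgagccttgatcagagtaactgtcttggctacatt
RMER4B_dup2832 (chrX:7412108-7412143, − strand, 2010204K13Rik): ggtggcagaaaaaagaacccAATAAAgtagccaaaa
MLT1K_dup1815 (chr11:3639785-3639840, − strand, in an antisense-type transcript listed under Tug1): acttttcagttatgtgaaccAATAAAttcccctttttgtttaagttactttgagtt
RMER19C_dup2666 (chr19:5914786-5914829, + strand, antisense RNA Gm42067): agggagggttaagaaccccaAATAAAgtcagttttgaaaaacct
MT2A_dup4097 (chr7:143033572-143033631, − strand, R74862): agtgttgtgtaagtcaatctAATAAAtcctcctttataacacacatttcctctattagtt
RLTR19-int_dup378 (chr3:54482874-54482920, + strand, Gm5641): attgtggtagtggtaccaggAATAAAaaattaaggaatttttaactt

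The 3 ETn LTR windows were nearly the same sequence. RLTRETN_Mm_dup1163 shared 63 of 64 bases with each of the other two, and these shared 62 of 64 with each other. In all 3 the median read end lay 18 nt past the last base of the signal. The larger part of the LTR RLTRETN_Mm_dup1163 (chr16:11191482-11191781, + strand, 300 bases from base 21 of the copy) shows how much of the repeat lay beyond that end, which was base 205 of the copy.
RLTRETN_Mm_dup1163, bases 21 to 320: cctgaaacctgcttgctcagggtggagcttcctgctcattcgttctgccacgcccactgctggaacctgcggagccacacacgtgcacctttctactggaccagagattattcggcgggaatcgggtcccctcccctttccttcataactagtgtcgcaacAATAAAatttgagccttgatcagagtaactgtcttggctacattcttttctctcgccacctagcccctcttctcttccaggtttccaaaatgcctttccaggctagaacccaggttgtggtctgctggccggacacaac

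AATAAA was searched on both strands of the 60 copies with PASS reads whose sequence could be read from a transcript. It lay within 40 nt upstream of the median read end on exactly 1 strand in 24 of them, on both strands in 0, and on neither in 36. The median distance from the signal to the read end was 18 nt. Anywhere in the copy, 34 of the 60 held it on either strand. Among 32851 RefSeq promoter windows of 300 bases (GRCm38.p6), 19.6% held AATAAA on either strand, and 2.00% held it in their last 46 bases, the length of signal plus search window. These windows were not matched to the copies in length or base composition, so their shares are no test of enrichment. A match is a run of letters, and other signal variants were not searched.

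Over all reads, ETn RNA ended at the same place. On ERVB7_1-LTR_MM the median last aligned nucleotide was 205 in copies with a median length of 317 nt, and 86.5% of the 2507 reads ended within 5 nt of it. On RLTRETN_Mm it was also 205, in copies of 321 nt, with 88.9% of the 1681 reads within 5 nt. The median was 205 in each of the 8 libraries for ETn LTRs together. These reads entered the repeat at its first bases, since 87.99% of ERVB7_1-LTR_MM alignments and 89.4% of RLTRETN_Mm alignments started within 5 nt of the copy's start. IAPLTR1_Mm reads were less uniform, with a median end of 283 nt, 29.8% of 812 reads within 5 nt of it, and a median of 59 nt of LTR left unread. In RMER4B, by contrast, 88.4% of the 138 reads ran to within 5 nt of the copy's end. Of these 138 reads, 128 lay on the single copy RMER4B_dup2832. Its median read end, 277 nt, was the last base of the contig, so an RNA end further on could not be seen.

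**Figure D1:**
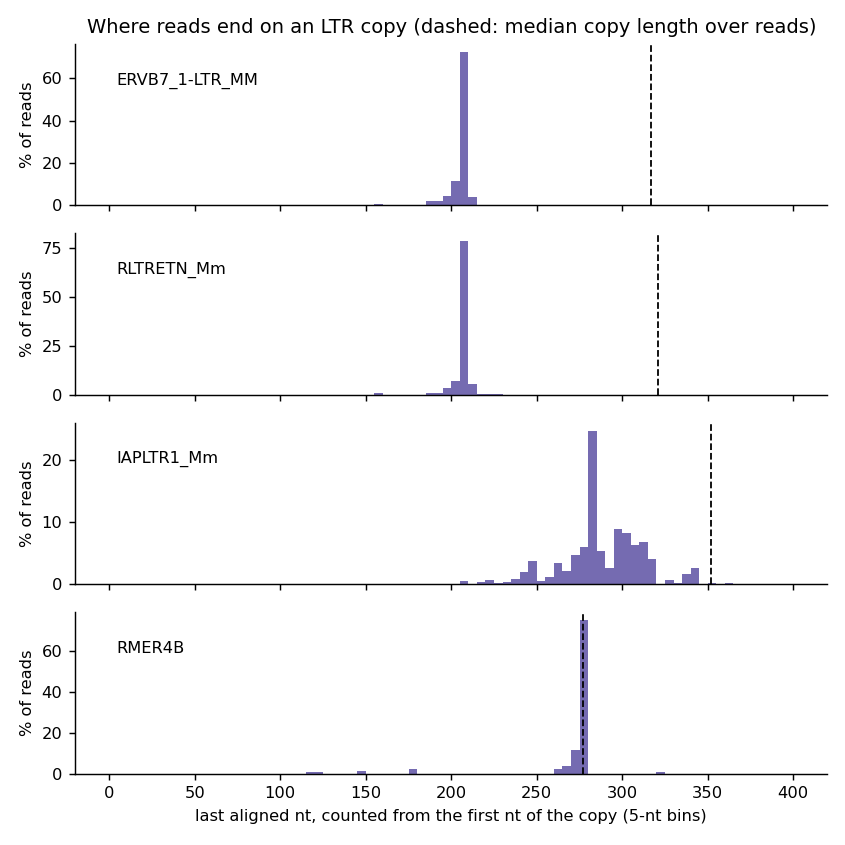
Share of reads (%) by the last aligned nucleotide, counted from the first nucleotide of the copy in bins of 5 nt, for ERVB7_1-LTR_MM, RLTRETN_Mm, IAPLTR1_Mm and RMER4B, all 8 libraries pooled. The dashed line is the median copy length. Reads on both ETn LTRs pile up at about nucleotide 205, more than 100 nt before the end of the copy (medians of 112 and 116 nt). RMER4B reads, 128 of them on a single copy, reach its end.

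Most ETn and IAP LTR reads aligned to more than the LTR. Of 4188 ETn LTR reads, 72.2% also aligned to an ETn or MusD internal contig or an LTR fragment next to it (MMETn-int in 53.3%, RLTR13G in 54.7%, ETnERV-int in 40.8%, ERVB4_1C-LTR_Mm in 10.1%). Their alignments to LTR-class contigs summed to a median of 1336 nt per read, and to 7156 nt in the longest. Of 992 IAP LTR reads, 71.3% also aligned to IAPEz-int, with a median sum of 1360 nt.  A further 14.5% of ETn LTR reads and 24.1% of IAP LTR reads had no other alignment. An annotated transcript was also hit by 22.97% of ETn LTR reads, most often that of Olfr318 (378 reads), an olfactory receptor gene. The share of ETn LTR reads with any of the internal contigs or LTR fragments named above was between 63.99% and 78.2% in every library.

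A minority of LTR alignments carried the tag PASS. PASS was given to 19.4% of the 39566 LTR alignments (17.7% to 21.2% per library), against 85.3% on non-repeat transcripts, 69.7% on LINE copies and 48.5% on SINE copies. A further 64.9% of LTR alignments were tagged SUFFCLIP, Nanopolish's mark for reads whose alignment stops short of the tail. MMETn-int had 11824 alignments and 152 with PASS, and ETnERV-int had 5681 and 19. PASS was given to 78.4% of ERVB7_1-LTR_MM, 80.4% of RLTRETN_Mm and 85.7% of IAPLTR1_Mm alignments. Repeats named as LTRs were not alike in this, with PASS in 0.0672% of RLTR13G, 0.585% of ERVB4_1C-LTR_Mm, 29.6% of MTD, 42.1% of ORR1B1 and 43.7% of RMER4B alignments. Nor were internal segments, since RLTR19-int had PASS in 57.5% of its 134 alignments.

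ETn LTRs held most of the class. ERVK had 6138 reads (79.8% of the LTR reads), ERVL-MaLR 961 (12.5%), ERV1 420 (5.46%), ERVL 174 (2.26%) and Gypsy 2. The ETn LTRs alone had 4188 reads (54.4%) on 490 copies, and the IAP LTRs 992 (12.9%) on 240 copies. The 10 elements with most reads were ERVB7_1-LTR_MM (2507), RLTRETN_Mm (1681), IAPLTR1_Mm (812), MMETn-int (152), RMER4B (138), MTA_Mm (100), IAPLTR2_Mm (84), ORR1A2 (82), ORR1A4 (80) and ORR1B1 (80). By place, 1187 copies with 59.2% of the reads were intergenic, 547 with 29.0% were intronic and 282 with 11.7% overlapped an annotated exon, on either strand. The place is that of the copy a read was assigned to, which is uncertain, since 31.8% of LTR reads reached a mapping quality of 10. The reads were spread thinly, since 62.3% of the copies had a single read and 121 had at least 10.

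The 10 copies with most reads took 24.8% of LTR reads, and 9 of them were ETn LTRs. ERVB7_1-LTR_MM_dup161 (chr5:88167685-88168001, intergenic) had 246 reads, and ERVB7_1-LTR_MM_dup160 (chr5:88162459-88162775, intergenic) 222. These lay 5226 nt apart, start to start, with ETn internal contigs next to each. ERVB7_1-LTR_MM_dup162 (chr5:89209013-89209330) had 242 reads and RLTRETN_Mm_dup344 (chr5:89203777-89204097) 221. Both lay in an intron of Slc4a4, a bicarbonate transporter gene, 5236 nt apart. ERVB7_1-LTR_MM_dup593 (chr13:113723639-113723954) and ERVB7_1-LTR_MM_dup592 (chr13:113718414-113718729) had 221 and 194 reads and lay 5225 nt apart in intergenic sequence. RLTRETN_Mm_dup1075 (chr14:18179373-18179693, intergenic) had 197 reads, RLTRETN_Mm_dup13 (chr1:7620706-7621026, intergenic) 148 and ERVB7_1-LTR_MM_dup298 (chr8:15760969-15761286, intergenic) 89.

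The count of a single ETn copy was uncertain. The median mapping quality of the reads was 1 to 8 on these 9 ETn copies, and a quality of 10 was reached by 15.8% of all ETn LTR reads and 2.52% of IAP LTR reads, against 71.5% on non-repeat transcripts. The exception was RMER4B_dup2832 (chrX:7412108-7412384), in an exon of 2010204K13Rik, with 128 reads, a median mapping quality of 60 and all reads at or above 10. Its reads numbered 17 and 15 under DMSO and 11 and 14 under MHY at 24 h, then 18 and 13 under DMSO and 25 and 15 under MHY at 48 h. The groups overlapped at 48 h, and at 24 h both MHY counts were below both DMSO counts, but per library depth the groups overlapped there too. Copies are contigs that share sequence, not replicates of each other.

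Read shares were compared next. LTR reads made up 0.310% (95% Wilson interval 0.287% to 0.335%) and 0.337% (0.316% to 0.358%) of PASS alignments in DMSO 21 and 23, and 0.322% (0.300% to 0.346%) and 0.349% (0.323% to 0.377%) in MHY 21 and 23. At 48 h they made up 0.401% (0.376% to 0.428%) and 0.377% (0.357% to 0.399%) in DMSO 24 and 25, and 0.459% (0.436% to 0.483%) and 0.449% (0.422% to 0.478%) in MHY 24 and 25. Intervals cover counting error only. The MHY and DMSO libraries overlapped at 24 h, and at 48 h the lower MHY value exceeded the higher DMSO value. In each treatment, both libraries of 48 h lay above both of 24 h.

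The mean share at 24 h was 0.323% ± 0.0187 with DMSO and 0.336% ± 0.0189 with MHY (SD, n = 2 each; two-sided exact permutation test, p = 0.667). For the 48 h libraries the means were 0.389% ± 0.0170 and 0.454% ± 0.00688 (SD, n = 2 each), a difference of 0.0647 percentage points (exact permutation test, p = 0.333). With 2 libraries a group, no exact p can go below 0.333, so no such comparison could pass 0.05. Within the 2 runs of 48 h the difference was 0.0557 and 0.0711 percentage points, and the runs add no biological replicates. In bulk RNA, a change in the number of cells that make an RNA and a change in its amount per cell cannot be told apart.

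ETn LTRs showed the same order at 48 h. They took 0.154% and 0.173% of PASS alignments in DMSO 21 and 23, 0.167% and 0.158% in MHY 21 and 23, 0.220% and 0.196% in DMSO 24 and 25, and 0.288% and 0.264% in MHY 24 and 25. At 48 h both MHY libraries were above both DMSO libraries, by 0.0675 percentage points on average (exact permutation test, p = 0.333), and at 24 h the groups overlapped (p = 1.0). Without ETn LTRs the difference in LTR share at 48 h was -0.00276 percentage points, and among reads with a single alignment it was -0.00412. Reads of any tag that touched an ETn LTR, MMETn-int or ETnERV-int were 0.710% and 0.598% of all reads in DMSO 24 and 25 and 0.905% and 0.774% in MHY 24 and 25, so that the same libraries were high. Over alignments of any tag the difference in LTR share at 48 h was 0.384 percentage points. Keeping PASS alignments with mapping quality 10 or more left 0.0128 percentage points of the 48 h difference in LTR share.

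IAP LTRs did not follow this order. They took 0.0425% and 0.0422% in DMSO 21 and 23, 0.0442% and 0.0645% in MHY 21 and 23, 0.0461% and 0.0540% in DMSO 24 and 25, and 0.0478% and 0.0523% in MHY 24 and 25. Both MHY libraries were above both DMSO libraries at 24 h (exact permutation test, p = 0.333), with MHY 23 far above the other three. Over reads of any tag that touched an IAP contig the groups overlapped at 24 h, with 0.0628% and 0.0756% of all reads under DMSO and 0.0753% and 0.0998% under MHY (exact permutation test, p = 0.667). At 48 h the groups overlapped in the PASS share (exact permutation test, p = 1.0) and over reads of any tag (p = 0.667). The remaining LTR copies took between 0.112% and 0.135% in every library.

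**Figure D2:**
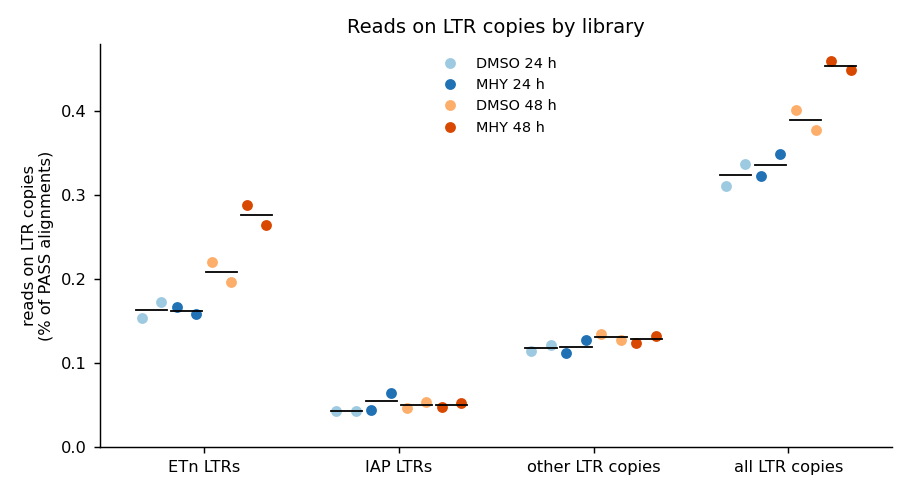
Reads on ETn LTRs, IAP LTRs, the other LTR copies and all LTR copies as a percent of the PASS alignments of a library. Points are libraries and bars the mean of 2. ETn LTRs are higher in the 48 h libraries and highest in the 2 MHY libraries of 48 h (0.264% and 0.288%), while the other LTR copies stay between 0.112% and 0.135%.

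Family counts were tested with limma voom over annotated transcripts and repeat families, with all 8 libraries in 1 fit and Benjamini-Hochberg adjustment over all 4116 features. At 24 h 2 features (0.0486%) had an adjusted p under 0.05, and at 48 h 71 (1.72%). None of the 4 LTR families tested (Gypsy had too few reads) was among them in limma at either time, and 0 of the 4 had an unadjusted p under 0.05, as had 4.49% and 12.9% of all features. ERVK changed by a log2 of 0.02 ± 0.11 (SE, limma adjusted p = 0.999) at 24 h and 0.18 ± 0.09 (limma adjusted p = 0.419) at 48 h. ERVL had estimates of 0.69 ± 0.35 (limma adjusted p = 0.976) and -0.44 ± 0.30 (limma adjusted p = 0.589), with 10 to 32 reads per library. ERV1 and ERVL-MaLR lay between -0.22 and 0.08 in both contrasts. The interaction of treatment with time was called for 9 features (0.219%) and for 0 of the 4 families, of which 1, ERVL, had an unadjusted p under 0.05 (limma adjusted p = 0.522), beside 7.02% of all features.

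At the level of elements, which was added after the data had been seen, 16 LTR elements were tested among 4139 features. None was called at 24 h, when 2 features were (0.0483%), or at 48 h, when 66 were (1.59%), and 1 and 3 of the 16 had an unadjusted p under 0.05, as had 4.49% and 12.9% of all features. At 48 h ERVB7_1-LTR_MM had a log2 change of 0.31 ± 0.12 (SE, limma adjusted p = 0.220) and RLTRETN_Mm of 0.33 ± 0.14 (limma adjusted p = 0.273), or 1.24-fold and 1.25-fold. The latter was 0.18 without DMSO 25. IAPLTR2_Mm, the LTR of another IAP subtype, had 14 and 17 reads in DMSO 24 and 25 and 3 and 10 in MHY 24 and 25. Its log2 change at 48 h was -1.81 ± 0.56 (limma adjusted p = 0.0713), the lowest adjusted p of an LTR element in this fit. With a filter of at least 5 reads in 2 libraries IAPLTR2_Mm was called (-1.69 ± 0.48, limma adjusted p = 0.0354), as 1 of 30 LTR elements, beside 1.32% of all features. Other settings called ETn LTRs at 48 h. With total reads as library size ERVB7_1-LTR_MM was called (limma adjusted p = 0.0394), beside 1.21% of all features. With no filter both ETn LTRs were (limma adjusted p = 0.000524 and 0.0224), of 278 LTR elements, beside 0.784%. The interaction with time was called for 0.217% of features and for 0 of the 16 elements in limma, 3 of which had an unadjusted p under 0.05, beside 7.05% of all features. IAPLTR1_Mm had 0.42 ± 0.19 at 24 h (limma adjusted p = 0.978; 0.23 without MHY 23 and 0.64 without MHY 21) and -0.09 ± 0.17 at 48 h (limma adjusted p = 0.879).

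**Figure D3:**
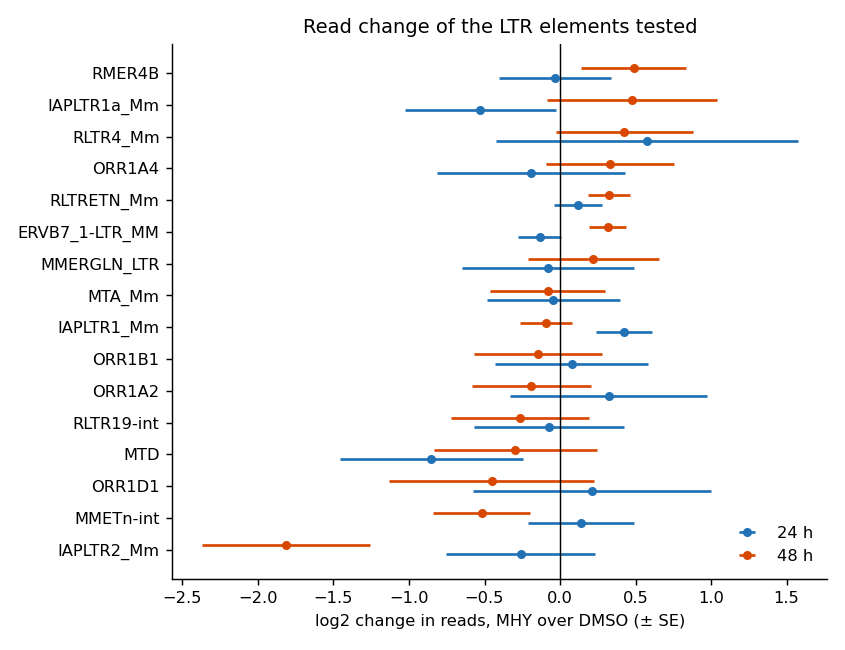
Log2 change in reads, MHY over DMSO, of the 16 LTR elements tested, at 24 h (blue) and 48 h (orange), from limma voom with standard errors as bars. Both ETn LTRs sit at about 0.3 at 48 h (0.31 and 0.33) and near 0 at 24 h (-0.14 and 0.12), and IAPLTR2_Mm is the lowest at 48 h (-1.81). None passed the adjusted threshold.

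At the level of single copies, 14 LTR copies passed the filter among 4125 features. In limma none was called at 24 h, when 2 features were (0.0485%), or at 48 h, when 68 were (1.65%). At an unadjusted p under 0.05 there were 0 and 1 of the 14, beside 4.46% and 12.8% of all features. At 48 h 13 of the 14 estimates were above 0, with a median of 0.33 beside -0.02 over all features, and at 24 h 3 of 14 were, with a median of -0.15. The copies share ambiguous reads and do not count as separate evidence. In the limma interaction with time 0 of the 14 were called, beside 0.218% of all features, and 1 had an unadjusted p under 0.05, beside 7.03%. ERVB7_1-LTR_MM_dup161 had 15 and 25 reads under DMSO and 30 and 10 under MHY at 24 h, and 26 and 38 under DMSO and 53 and 49 under MHY at 48 h. The last pair was above the other six counts, and the log2 change at 48 h was 0.56 ± 0.25 (limma adjusted p = 0.318).

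Tails of LTR RNA were longer than those of other classes. The median tail of LTR reads was 125 and 127 nt in DMSO 21 and 23, 128 and 126 nt in MHY 21 and 23, 121 and 123 nt in DMSO 24 and 25, and 118 and 120.0 nt in MHY 24 and 25. On non-repeat transcripts it was between 92.4 and 102.5 nt, on LINE copies between 75.6 and 92.8 nt and on SINE copies between 84.2 and 97.0 nt. No LTR library overlapped with any library of these classes. Within libraries, LTR tails exceeded those of non-repeat transcripts by 24.6 ± 1.63 nt (SD over 8 libraries, 8 of 8 higher; two-sided exact sign-flip permutation test, p = 0.00781, the smallest that 8 libraries can give). The median translocation rate, which Nanopolish uses to turn dwell time into length, was 115.85 to 125.5 nt per second per library for LTR reads and 115.85 to 120.48 for non-repeat transcripts, and its part in the difference was not tested.

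LTR tails were longer than those of LINE copies by 36.5 ± 3.41 nt and than those of SINE copies by 33.5 ± 6.35 nt, in 8 of 8 libraries each (exact permutation test, p = 0.00781, adjusted p = 0.0137 over the 14 pairs compared). LINE and SINE are the classes of non-LTR retrotransposons, whose own 3′ ends are A-rich. Against SINE copies, 14.0 nt remained once alignments below mapping quality 10 were dropped and 21.8 nt once barcodes below a confidence of 0.9 were. That to non-repeat transcripts was 20.8 and 25.1 nt under the same filters.

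**Figure D4:**
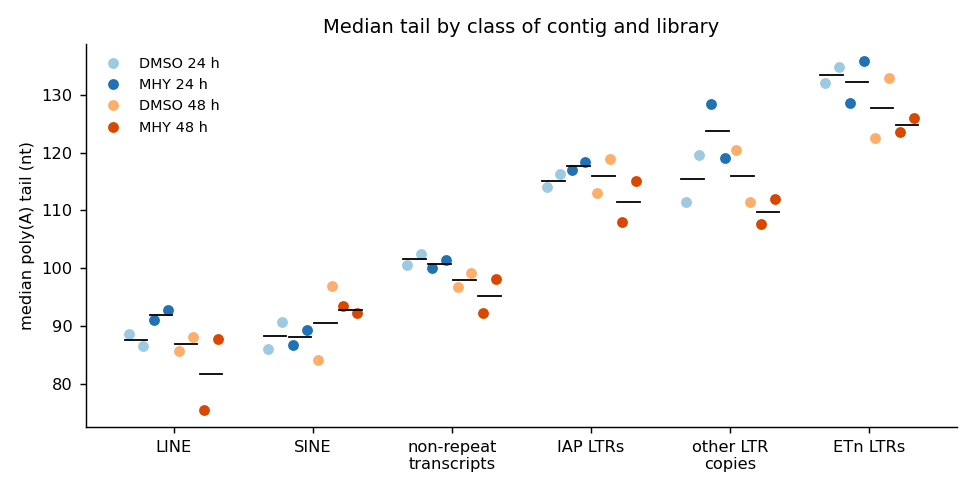
Median poly(A) tail (nt) of LINE copies, SINE copies, non-repeat transcripts, IAP LTRs, the other LTR copies and ETn LTRs. Points are libraries and bars the mean of 2; the axis does not start at 0. All LTR sets lie above the other classes, and ETn LTRs are highest (122.57 to 135.715 nt).

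Among LTR copies, the ETn LTRs had the longest tails. Their median was 132 and 135 nt in DMSO 21 and 23, 129 and 136 nt in MHY 21 and 23, 123 and 133 nt in DMSO 24 and 25, and 124 and 126 nt in MHY 24 and 25. IAP LTRs had medians of 108 to 119 nt, and the remaining LTR copies of 108 to 128 nt. ETn tails exceeded IAP tails by 14.5 ± 3.43 nt and those of the remaining copies by 13.3 ± 7.90 nt, in 8 of 8 libraries (exact permutation test, p = 0.00781, adjusted p = 0.0137 for both). IAP LTRs and the remaining copies differed by -1.20 ± 6.06 nt (exact p = 0.570). Both sets were still above non-repeat transcripts, by 16.1 ± 1.97 nt and 17.3 ± 5.91 nt, in 8 of 8 libraries (adjusted p = 0.0137 for both). The split into ETn, IAP and remaining copies was made after the data had been seen.

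Between families, ERVL-MaLR had the shorter tails. Its median was 11.4 ± 9.64 nt below that of ERVK, in 7 of 8 libraries (exact permutation test, p = 0.0234, adjusted p = 0.0365). It was 10.1 ± 9.37 nt below that of ERV1, in 8 of 8 (exact permutation test, p = 0.00781, adjusted p = 0.0137). ERVK and ERV1 differed by 1.21 ± 11.7 nt (adjusted p = 0.781), and ERVL, with at most 32 reads per library, did not differ from any family at an adjusted p under 0.05. Per library the medians were 120 to 129 nt for ERVK, 101 to 130 nt for ERVL-MaLR, 107 to 140 nt for ERV1 and 87.7 to 145 nt for ERVL. The spread grew as the read number fell.

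ETn tails were also compared by whether the read aligned to an ETn or MusD internal contig or an LTR fragment next to it. In all 8 libraries, ETn LTR reads that did so had a longer median tail than those that did not, by 3.06 to 16.4 nt. For IAP LTRs, split by IAPEz-int, the sign varied, with differences from -22.6 to 24.9 nt. These differences are given as a description.

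The class of tails moved with the medians. Tails were sorted as <30-nt, ~60-nt (30 to 90 nt) and longer. The ~60-nt class held 21.98% to 28.1% of LTR reads per library, against 37.9% to 43.8% on non-repeat transcripts, a difference of -15.3 ± 1.02 percentage points (8 of 8 libraries lower; exact permutation test, p = 0.00781). It held 14.9% to 24.8% of ETn LTR reads and 28.8% to 34.7% of IAP LTR reads. The <30-nt class held 0.653% to 2.21% of LTR reads, against 2.17% to 4.46%, a difference of -1.31 ± 0.639 percentage points (8 of 8 lower; exact p = 0.00781). This difference was -0.240 percentage points without ETn LTRs, -0.459 among reads with a single alignment and 0.00594 with a bound of 20 nt, none of which passed 0.05. It also no longer passed with a mapping quality of at least 10. Of LTR reads, 69.8% to 76.2% had tails over 90 nt.

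**Figure D5:**
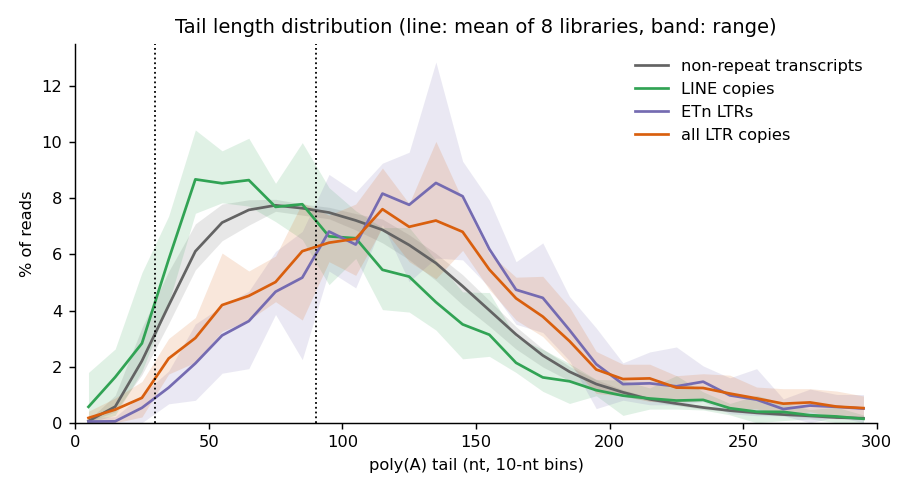
Share of reads (%) by poly(A) tail length in bins of 10 nt for non-repeat transcripts, LINE copies, ETn LTRs and all LTR copies. Lines are the mean of the 8 libraries, bands their range, and dotted lines the class bounds of 30 and 90 nt. The ETn and LTR curves lie to the right of the others, with 14.9% to 24.8% of ETn reads between the bounds.

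MHY and tails were compared last. At 24 h the LTR median was 126 ± 1.39 nt under DMSO and 127 ± 1.00 nt under MHY (n = 2, exact permutation test, p = 0.667). The 48 h medians were 122 ± 1.41 nt with DMSO and 119 ± 1.39 nt with MHY, and both MHY libraries were below both DMSO libraries, by 3.20 nt on average (n = 2, exact permutation test, p = 0.333). Within the 2 runs of 48 h the difference was -3.28 and -3.55 nt, again without added replicates. In each treatment, both 48 h libraries had shorter LTR tails than both 24 h libraries, with a difference of -3.78 nt under DMSO and -7.98 nt under MHY. Non-repeat transcripts had medians of 96.8 and 99.3 nt under DMSO and 92.4 and 98.2 nt under MHY at 48 h, and LTR tails stayed 24.2 nt above them under DMSO and 23.7 nt under MHY.

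The tail classes of all LTR reads together did not separate the treatments. The ~60-nt share was 24.7% ± 1.78 and 23.6% ± 2.27 at 24 h (DMSO and MHY, n = 2, exact permutation test, p = 0.667) and 25.95% ± 0.956 and 26.5% ± 2.23 at 48 h (p = 1.0). The <30-nt share was 1.01% ± 0.309 and 1.24% ± 0.834 at 24 h (n = 2, exact p = 1.0), and 1.90% ± 0.438 and 1.97% ± 0.138 at 48 h (p = 1.0). In the limma fit of log2 odds over 1876 transcripts and families, 0 features were called in either class at 24 h (0.0%), and at 48 h 7 in the <30-nt share (0.373%) and 5 in the ~60-nt share (0.267%). Of the 4 LTR families, 0 were called in these 4 limma contrasts, and 0 had an unadjusted p under 0.05. Of all features in these family-level fits, 5.81% and 10.5% had such a p in the <30-nt share at 24 h and 48 h, and 4.37% and 6.13% in the ~60-nt share. Of 5 LTR elements in separate element-level fits of 1883 features, 0 were called in limma at either time, beside 0.372% of features in the <30-nt share and 0.266% in the ~60-nt share at 48 h. At an unadjusted p under 0.05 there was 1 in the <30-nt share at each time, 1 in the ~60-nt share at 24 h and 0 at 48 h. Of all features, 5.84% and 10.6% had such a p in the <30-nt share at 24 h and 48 h, and 4.41% and 6.11% in the ~60-nt share. In ERVL-MaLR both MHY libraries had more <30-nt tails than both DMSO libraries, with 1.80% and 4.94% against 1.22% and 1.44% at 24 h and 5.33% and 4.88% against 3.0% and 3.43% at 48 h. Its log2 odds differed by 0.89 ± 0.50 (limma adjusted p = 0.978) and 0.62 ± 0.43 (limma adjusted p = 0.658). The family had 81 to 175 reads per library, so that each of these percents rests on few reads. The median over all features was -0.07 at 24 h and 0.43 at 48 h. Non-repeat transcripts had the same order at 48 h, with 4.46% and 3.38% under MHY against 2.87% and 2.57% under DMSO, and the opposite order at 24 h, with 2.23% and 2.17% against 2.34% and 2.72%. The ~60-nt share of ERVL-MaLR was lower in both MHY libraries than in both DMSO libraries at each time. Its means were 25.2% under MHY and 32.1% under DMSO at 24 h, and 33.2% and 36.9% at 48 h. The log2 odds of this share differed by -0.39 ± 0.30 (limma adjusted p = 0.990) and -0.26 ± 0.26 (limma adjusted p = 0.967).

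Genes known to act on LTR elements were taken from fixed lists. Among ERV silencing factors, 54 of 55 genes had reads and 32 transcripts of 25 genes were tested. In limma 0 were called at either time, beside 0.0486% and 1.72% of all features. Without adjustment, 0 transcripts at 24 h and 2 of 32 at 48 h had p under 0.05, beside 4.49% and 12.9% of all features. Their median log2 change was -0.03 at 24 h and -0.18 at 48 h, beside -0.02 over all features at both times. For single genes the estimate is that of the transcript with most reads. Trim28, the co-repressor recruited by KRAB zinc finger proteins, had a log2 change of 0.16 ± 0.17 at 24 h and -0.14 ± 0.16 at 48 h (limma adjusted p = 0.993 and 0.802). H3f3a and H3f3b, which encode histone H3.3, and Sumo2, a modifier of Trim28 and its partners, lay between -0.31 and 0.10 in both contrasts.

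Of 14 genes for factors that act on LTR RNA or its reverse transcription, 14 had reads and 11 transcripts of 6 genes were tested. None was called in limma (0.0486% and 1.72% of all features were), with 0 and 3 of the 11 at an unadjusted p under 0.05, beside 4.49% and 12.9% of all features, and the median was -0.17 at 24 h and -0.19 at 48 h. Hnrnpk, an RNA-binding protein needed for ERV silencing, had -0.29 ± 0.25 and -0.47 ± 0.23 (limma adjusted p = 0.984 and 0.360) for that transcript. Over all its transcripts it had 553 and 488 CPM under DMSO and 518 and 469 under MHY at 24 h, and 559 and 642 against 481 and 554 at 48 h, so that the groups overlapped at 24 h and not at 48 h. Rnaseh2b, a subunit of ribonuclease H2, had 66.5 and 66.0 CPM under DMSO and 107 and 97.5 under MHY at 48 h, without overlap, and 0.52 ± 0.31 for its transcript with most reads (limma adjusted p = 0.491). Lin28a and Rnaseh2a had estimates from -0.52 to -0.14. Of 23 genes that derive from retroelements or mark cells like the 2-cell embryo, 5 had reads and only Peg10, a retroelement-derived gene of the placenta, was tested. Its best covered transcript had log2 estimates of -0.57 ± 0.70 and -1.11 ± 0.53 (limma adjusted p = 0.993 and 0.349). Over all transcripts of Peg10, the groups overlapped at 48 h, with 33.7 and 151 CPM under MHY and 70.9 and 96.0 CPM under DMSO.

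The libraries held 187690 to 333435 PASS alignments. All 12 fixed markers of pluripotent cells had reads and summed to 3488 to 4002 CPM (scaled to PASS alignments). Endoderm markers summed to at most 18.0 and fibroblast-like markers to at most 21.0 CPM, with Sox17, Afp, Ttr and Col3a1 at 0. Neuron markers summed to 239 to 264 CPM in MHY 48 h and 327 to 333 in DMSO 48 h, with Dcx at 0. At 24 h they overlapped, with 282 to 421 under MHY and 301 to 353 under DMSO. Mesoderm markers summed to 30.7 and 182 in MHY 48 h, 70.9 and 219 in DMSO 48 h, and at most 58.8 at 24 h. The part of these differences in the LTR shares was not tested.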

How the data were processed

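Poly(A) RNA of 8 P19 libraries (2 per group) had been sequenced directly on nanopores. For basecalling the authors used Guppy. Reads went through minimap2 (2.20 in the submitters' notes) against GENCODE vM17 transcripts of mm10 plus repeat copies as separate contigs, tails were estimated by Nanopolish, and barcodes came from Deeplexicon. The deposited table holds 1 alignment per line, with tail length in nucleotides, a mapping quality score, a barcode confidence given as a fraction, and positions on the contig, not normalized and with all quality tags kept. Which way a copy runs on the chromosome is not given in the sources used here. Counts were made here by counting lines with tag PASS, 1 per read and contig.

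Contig coordinates were intersected with GENCODE vM21 (bedtools 2.31.1); 0 of 4933 LTR contigs had an alignment past their end. Features reaching 10 reads in 2 or more libraries were tested with limma 3.58.1 voom (R 4.3.3) and median-of-ratios size factors. Tail classes used limma on log2 odds (0.5 read added, weighted by read number, at least 10 reads in each library). Single values used exact permutation tests that went through all arrangements. Shares carry Wilson 95% intervals (scipy 1.17.1). The fits were tested on simulated data. Named were all families, the 10 elements and 10 copies with most reads, any that were called in a fit, and up to 4 members with most reads of each gene list. Members and lists were chosen with earlier results of these data known. Groups came from the labels and the table's condition column, which gives 24 h conditions without a time. Which of the 2 replicates of a group in the labels a library is was not known and not used. Alternatives are listed in the closing section.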

Additional observations from a re-analysis of the deposited data

Results flagged for a closer look

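Among the LTR class, its 4 main families and the ETn and IAP sets and elements with most reads, in 3 measurements both MHY libraries lay on one side of both DMSO libraries at 24 h and on the other side at 48 h. The <30-nt share of RLTRETN_Mm reads was 0.0% under DMSO and 0.697% under MHY at 24 h, and 1.31% and 0.604% at 48 h, so that the MHY effect differed by -1.40 percentage points between the times. The interaction in limma had a log2 of -2.69 ± 0.55 (SE, limma adjusted p = 0.244), and each share rests on at most 3 reads per library. The ~60-nt share of IAPLTR1_Mm was 34.6% under DMSO and 33.0% under MHY at 24 h, and 29.2% and 32.4% at 48 h, a difference of 4.84 percentage points between the effects (limma interaction, adjusted p = 0.995). The read share of MMETn-int was 0.00692% under DMSO and 0.00778% under MHY at 24 h, and 0.00864% and 0.00641% at 48 h, a difference of -0.00310 percentage points (limma interaction, adjusted p = 0.845). The same crossing occurred outside LTR copies, in the ~60-nt share of LINE copies (-3.40 percentage points at 24 h and 3.77 at 48 h, MHY minus DMSO) and the <30-nt share of non-repeat transcripts (-0.333 and 1.20). None of the 3 LTR differences passed the threshold, and time and sequencing run cannot be told apart.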

How the results depend on the processing

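Over all alternatives, the longer LTR tails and the smaller ~60-nt share against non-repeat transcripts, and the longer tails against LINE and SINE copies, kept their direction and passed 0.05. Leaving out 1 library each gave 24.2 to 25.004 nt, -15.5 to -15.0 percentage points, 35.6 to 37.1 nt and 32.5 to 34.8 nt. The <30-nt share minus that of non-repeat transcripts no longer passed with a mapping quality of at least 10 (-0.789), among single-alignment reads (-0.459) or without ETn LTRs (-0.240), and reversed with a bound of 20 nt (0.00594).

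For MHY against DMSO at 24 h, the difference in LTR read share reversed with a mapping quality of at least 10 (-0.00546 percentage points) and ranged from -0.00107 to 0.0256 with 1 library left out, being negative without DMSO 21 (-0.000931) or MHY 23 (-0.00107). The median tail reversed without copies that overlap an exon (-0.835 nt) and within runs 1 and 2 (-0.135 and -1.88 nt). The <30-nt share reversed with a bound of 20 nt (-0.379), within run 2 (-0.187) and without MHY 23 (-0.362), and ranged up to 0.817. The ~60-nt share reversed within run 1 (0.983) and without DMSO 21 (0.158) or MHY 23 (0.502), from -2.71.

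With alignments of any quality tag, the difference in read share kept its direction and was larger, at 0.0620 percentage points at 24 h and 0.384 at 48 h. At 48 h the read share reversed among single-alignment reads (-0.00412) and without ETn LTRs (-0.00276, chosen after seeing the data), and was 0.0527 to 0.0767 with 1 library left out. The median tail kept its direction throughout (-4.20 to -2.21 nt with 1 library left out). The <30-nt share reversed with a barcode confidence of at least 0.9 (-0.155), among single-alignment reads (-0.278), without exon copies (-0.0137), with a bound of 20 nt (-0.215), and without DMSO 25 (-0.237) or MHY 24 (-0.0243), up to 0.383. The ~60-nt share reversed with a mapping quality of at least 10 (-0.288), without ETn LTRs (-0.331), within run 1 (-0.704), and without DMSO 25 (-0.0807) or MHY 24 (-0.979), up to 2.17. The cause of these changes was not tested.

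With no filter on reads, voom called 1 LTR family (ERVK, log2 0.18, limma adjusted p = 7.79e-07) and 2 elements (both ETn LTRs, limma adjusted p = 0.000524 and 0.0224) at 48 h, of 5 families and 278 elements, beside 0.782% and 0.784% of all features in those fits. It also called copies with 0 to 9 reads per library, 2 at 24 h (IAPLTR1_Mm_dup514 and MTA_Mm_dup6770) and 1 at 48 h (RLTRETN_Mm_dup1220), and MTA_Mm_dup6770 also in the interaction with time (log2 -5.05, limma adjusted p = 0.00172), of 2016 copies, beside 0.23%, 0.637% and 0.329% of all features. With total reads as library size 1 element was called at 48 h (ERVB7_1-LTR_MM, 0.41 ± 0.11, limma adjusted p = 0.0394), beside 1.21% of all features, a scaling that moved the median of all features by 0.10. With at least 5 reads 1 of 30 was called (IAPLTR2_Mm), beside 1.32%. Leaving out 1 library called 0 families, copies or elements in limma in any count or tail fit, as did a replicate block. Deviations of libraries with the same number correlated at -0.00843 at 24 h and 0.115 at 48 h, and with 2 numbers a time this does not settle whether they are paired. Each number holds 1 library per treatment, so a replicate block cannot move a mean difference (0.0647 for the read share at 48 h), which is no sign of stability. In voom it gave RLTRETN_Mm 0.31 at 48 h and IAPLTR1_Mm 0.44 at 24 h. The log2 change of ERVK at 24 h reversed with no filter (-0.0039) and at mapping quality 10 or more (-0.27), and ranged from -0.047 to 0.082 with 1 library left out, being negative without DMSO 21 or MHY 23. That of ERVB7_1-LTR_MM at 24 h ranged from -0.23 to -0.058, that of RLTRETN_Mm at 24 h ranged from -0.042 to 0.300 (negative without DMSO 21) and at 48 h from 0.18 to 0.44, and that of IAPLTR1_Mm at 24 h from 0.23 to 0.64 and at 48 h from -0.253 to 0.094 (positive without DMSO 25). The families other than ERVK and Gypsy rest on 10 to 175 reads per library, and Gypsy on 2 reads in all.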
